A study of Mus musculus with 6 samples.

Results

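Transcription factors known from segments of the nephron were followed in the renal cortex of mice lacking Prdm16. The group held 8 genes, chosen by their symbols as known segment factors from the 26903 genes in the count matrices, and all 8 were found. They are Hnf4a, Pax2, Pax8, Tfap2b, Gata3, Lhx1, Emx1 and Sall3. The choice was made with earlier results of these data known. Renal cortex was taken from 9-month-old mice labelled male, 3 of wild type (WT) and 3 in which exon 2 of Prdm16 had been deleted throughout the body with CRISPR-Cas9, a global knockout (KO). Each mouse gave 1 single-cell library on the BD Rhapsody system, which counts captured transcripts by unique molecular identifiers (UMIs). The question was where along the nephron each factor was found and whether its level differed between WT and KO within a cell class.

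The nephron is a tube of successive segments. Blood is filtered at the glomerulus, most of the filtrate is taken back in the proximal convoluted tubule (PCT), and the loop of Henle (LOH), distal convoluted tubule (DCT), connecting tubule (CNT) and collecting duct adjust what is left. In the collecting duct, principal cells (PC) move water and sodium and intercalated cells (IC) move acid and base. Segment identity in the adult is held by combinations of transcription factors, many of which first act while the kidney forms. Hnf4a is a nuclear receptor of the proximal tubule. Pax2 and Pax8 are paired-box factors needed for the kidney lineage itself. Tfap2b is an AP-2 factor of distal segments, Lhx1 a LIM homeodomain factor, Emx1 a homeodomain factor, Sall3 a spalt-type zinc finger factor, and Gata3 a zinc finger factor of the nephric duct that is also used by mesangial cells and T lymphocytes.

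After filtering, 28488 cells remained, between 3538 and 6276 per library, with 23107708 to 35366031 UMIs per library. Cells fell into 23 clusters and 15 classes named from marker genes. Of these classes 13 had enough cells in every library to be compared, 20 or more, or 10 or more for PCT-like cells. The 8 factors and 33 other segment factors were kept out of the genes used for clustering. Levels are given as CPM, the UMIs of a gene divided by all UMIs of that class in that library and scaled to the usual total of this unit. All UMIs include mitochondrial ones. Their median share per cell was 8.64% in macrophage-like, 11.0% in T and NK-like, 27.7% in PC-like, 39.2% in DCT-like and 42.3% in LOH-like cells. Comparisons of CPM between classes include this difference. Prdm16 itself was at 32.4, 26.7 and 27.1 CPM in WT against 21.0, 24.9 and 23.4 in KO mice over all retained cells. The assay captures transcripts by their 3′ ends, away from the deleted exon, so that this value does not check the loss of exon 2. The libraries of WT replicate 2 and KO replicate 1 carried Xist at 297 and 306 CPM, against 0.216 CPM or less in the other 4, although all mice were labelled male. No pair of libraries shared more than 2 cell barcodes.

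In the GENCODE vM21 annotation of GRCm38, 7 of the members span chr2:163506808-163572910 (Hnf4a, plus strand), chr19:44756045-44837871 (Pax2, plus), chr2:24420560-24475599 (Pax8, minus), chr1:19208914-19238576 (Tfap2b, plus), chr2:9857078-9890034 (Gata3, minus), chr11:84518284-84525535 (Lhx1, minus) and chr6:85187438-85204462 (Emx1, plus). All are protein coding. The stretch before Lhx1 is shown because Lhx1 was the member whose level differed between the groups and because a second gene starts inside it. These are the 250 bases before the RefSeq start of Lhx1 (GRCm38.p6, chr11:84525535-84525784, minus strand, 5′ to 3′). Capitals mark the 89 bases that are also the first exon of Lhx1os, a noncoding RNA transcribed away from Lhx1 on the other strand, with a start 125 bases from that of Lhx1.
Lhx1 upstream stretch: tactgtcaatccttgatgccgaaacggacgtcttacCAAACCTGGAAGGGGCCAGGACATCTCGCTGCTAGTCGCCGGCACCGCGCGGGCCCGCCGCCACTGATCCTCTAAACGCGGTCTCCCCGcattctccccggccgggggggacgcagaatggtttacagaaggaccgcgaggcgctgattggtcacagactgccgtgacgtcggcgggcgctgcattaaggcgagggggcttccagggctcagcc
RefSeq promoter windows of 300 bases (250 before the start and 50 after it) were matched for 7 of the 8 members. They were searched on both strands for 4 short motifs. The homeodomain core, spelled TAATTA, was present in 5.29% of 32851 mouse promoter windows. The core bound by zinc finger factors of the Gata3 family, spelled AGATAA, was present in 11.2%. The core of AP-2 factors, spelled GCCNNNGGC, was present in 16.6%. The TATA box, spelled TATAAA, was present in 13.6%. The Lhx1 window held none of the 4. The Gata3 window held the AP-2 core 3 times, the Emx1 window once and the middle of 3 Pax2 starts 2 times. Of the Hnf4a starts, the upstream one held the Gata3 family core once and the downstream one the homeodomain core once. The windows of Pax8 and Tfap2b held none.

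Read along the nephron, the 8 genes formed a graded map with 1 gene of the proximal tubule, 3 genes of the DCT-like cells and 4 of broader range. Hnf4a was nearly confined to the PCT-like class. Lhx1, Emx1 and Sall3 were highest in DCT-like cells and lower toward the collecting duct. Tfap2b ran from the macula densa-like class to PC-like cells, Pax2 and Pax8 covered every tubular class, and Gata3 was highest outside the tubule. Since classes were built from the same cells, these levels are a description and were not tested.

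**Figure D1:**
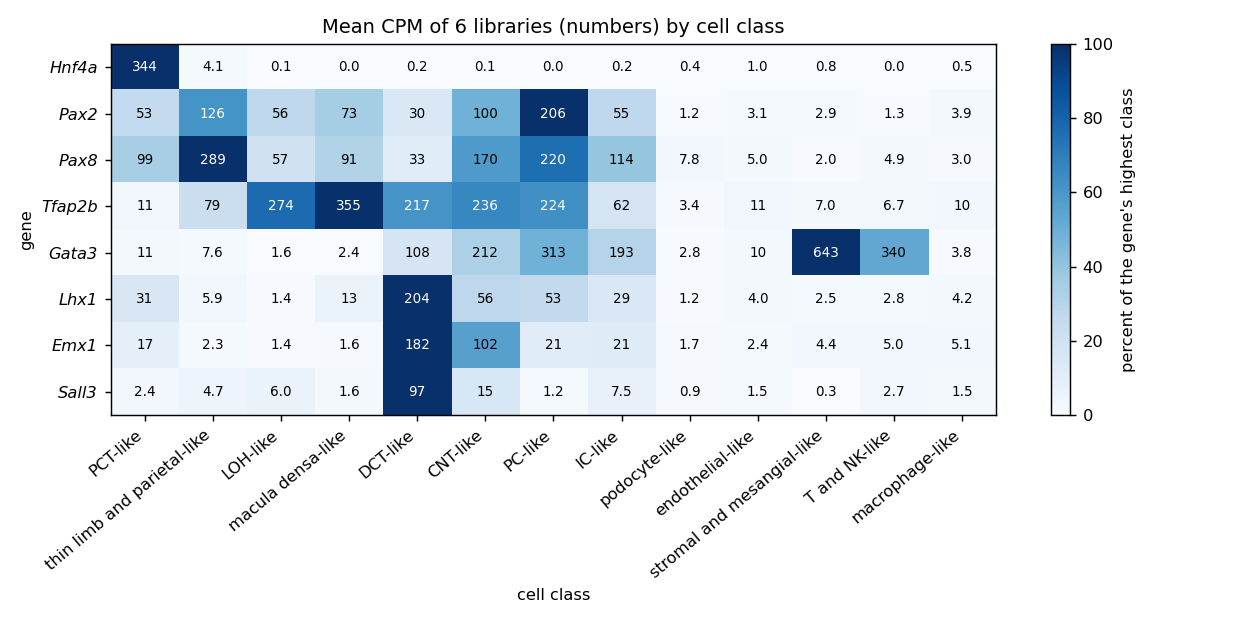
Mean CPM over 6 libraries of each gene (rows) in each of 13 cell classes (columns), with the number printed and the shade giving the percent of that gene's highest class. Hnf4a is dark in the PCT-like column alone, Lhx1, Emx1 and Sall3 are darkest in DCT-like cells, and Gata3 is darkest in stromal and mesangial-like cells.

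Hnf4a, which drives proximal transport and metabolic genes, stood at 347, 252 and 361 CPM in PCT-like cells of WT libraries and at 414, 528 and 161 CPM in KO libraries. The next class, thin limb and parietal-like, reached 4.09 CPM on average, and 95.8% of all Hnf4a UMIs came from PCT-like cells. Hnf4a was thus the member with the steepest fall between its first and second class. The KO levels rested on 8, 83 and 24 UMIs from 11, 37 and 17 cells, and the KO libraries lay on both sides of the WT range (log2 fold change KO against WT 0.17, SE 0.39, adjusted p = 0.999). A difference in Hnf4a was not detectable within this spread between libraries. Over all retained cells Hnf4a was lower in KO, at 0.245 to 3.81 CPM against 4.09 to 17.2 CPM in WT, beside PCT-like cell numbers of 11 to 37 in KO and 37 to 222 in WT libraries. In such a sum, fewer cells of a type and less RNA per cell cannot be told apart. The genes most like Hnf4a over the 13 classes were Aadac, Slc51b and Slc10a2, an esterase, a bile acid transporter subunit and a bile acid transporter (Pearson r of log2(CPM + 1) of 0.997, 0.997 and 0.996 among 10165 candidates).

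Pax2 and Pax8, closely related paired-box factors, had much the same profile over classes (r = 0.953 over 13 classes). Pax2 was highest in PC-like cells, at 173, 248 and 167 CPM in WT against 235, 230 and 182 in KO mice. Thin limb and parietal-like cells came next at 126 ± 23.2 CPM (SD, n = 6), then CNT-like cells at 100 ± 25.2 CPM and macula densa-like cells at 72.6 ± 23.0 CPM. From thin limb and parietal-like cells down to PCT-like cells, each class overlapped the next in its range over libraries. Pax8 was highest in thin limb and parietal-like cells at 289 ± 43.7 CPM, followed by PC-like cells at 220 ± 34.8 and CNT-like cells at 170 ± 31.1 CPM (SD, n = 6), with overlapping ranges. Below them IC-like cells were at 114 ± 23.0, PCT-like cells at 99.4 ± 34.6 and macula densa-like cells at 90.8 ± 28.4 CPM (SD, n = 6). Both genes were low in DCT-like cells, at 30.5 CPM for Pax2 and 33.1 CPM for Pax8. That made the DCT the trough of both profiles within the distal tubule, at 14.8% and 11.5% of each gene's highest class. Podocyte-like cells held Pax8 at 7.82 CPM and Pax2 at 1.24 CPM. Stxbp6, a syntaxin-binding protein gene, was the gene most like either (r = 0.982 for Pax2 and 0.973 for Pax8), followed by Ripk4 and Wwc1 for Pax2 and by Cdcp1 and Elovl7 for Pax8.

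In the comparison of WT with KO no test of Pax2 passed the threshold, and its values pointed different ways in different classes. In macula densa-like cells, the sensor cells at the end of the loop, Pax2 was at 52.3, 57.2 and 50.1 CPM in WT against 96.4, 76.4 and 103 in KO mice. Every KO library was above every WT library, with 281 UMIs behind the 6 values. The log2 fold change was 0.83 (SE 0.21, adjusted p = 0.0617; two-sided exact permutation p = 0.1, below which 3 against 3 cannot go). With no filter on low counts the adjusted p was 0.0315. In the same cells the 8 PC-like markers, 1 of them at 0, summed to 53.6 to 180 CPM in WT and 21.8 to 47.2 CPM in KO, and the 14 PCT-like markers, 4 of them at 0, to 100 to 190 CPM and 193 to 207 CPM. Their part in the Pax2 values was not tested. In IC-like cells Pax2 lay the other way, at 64.7, 69.3 and 55.7 CPM in WT against 47.9, 49.1 and 45.9 in KO mice, again without overlap (log2 fold change -0.39, SE 0.12, adjusted p = 0.175). In PC-like cells, where Pax2 was highest, the groups overlapped (0.16, SE 0.16, adjusted p = 0.731). They also overlapped in CNT-like (-0.35, SE 0.16), LOH-like (0.14, SE 0.11), thin limb and parietal-like (0.0017, SE 0.28) and PCT-like cells (0.45, SE 0.80), with a lowest adjusted p of 0.397.

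Pax8 was above WT in all 3 KO libraries in PC-like, IC-like and DCT-like cells, without passing the threshold in any. In PC-like cells it was at 208, 210 and 165 CPM in WT against 268, 230 and 240 in KO mice (log2 fold change 0.37, SE 0.12, adjusted p = 0.182). In IC-like cells it was at 110, 105 and 82.4 CPM in WT against 153, 119 and 116 in KO mice (0.41, SE 0.13, adjusted p = 0.213). The 2 groups did not overlap in either class, and the differences were of like size. In the low DCT-like class the levels were 30.8, 30.4 and 28.1 CPM in WT against 36.3, 36.0 and 37.1 in KO mice (0.28, SE 0.14, adjusted p = 0.546). The 5 DCT-like markers were also higher there in KO, at 4787 to 5231 CPM against 4105 to 4415 CPM, and their part was not tested. In CNT-like cells the groups overlapped (0.23, SE 0.14, adjusted p = 0.559), and with classes from marker scores the value was 0.51 (adjusted p = 0.0365). In 2 classes the value had the opposite sign, with groups that overlapped. In PCT-like cells Pax8 was at 154, 87.8 and 121 CPM in WT against 104, 70.0 and 60.4 in KO mice, where the KO levels rested on 22 UMIs (-0.70, SE 0.37, adjusted p = 0.804). In macula densa-like cells the value was -0.41 (SE 0.24, adjusted p = 0.649). In thin limb and parietal-like cells, where Pax8 was highest, it was 0.14 (SE 0.24, adjusted p = 0.984). Gm13415, an antisense transcript whose exons share bases with Pax8, was at 1.40 CPM or less in every library and class, and the strand setting of the counting was not given in the sources used here.

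Tfap2b, the AP-2 factor of the distal nephron, was highest in macula densa-like cells, at 366, 335 and 368 CPM in WT against 322, 346 and 395 in KO mice. LOH-like cells followed at 274 ± 22.3 CPM, CNT-like cells at 236 ± 39.4, PC-like cells at 224 ± 23.6 and DCT-like cells at 217 ± 13.1 CPM (SD, n = 6). The macula densa-like range lay above that of LOH-like cells, whereas the ranges from LOH-like to DCT-like cells overlapped from each class to the next. Below these came thin limb and parietal-like cells at 78.8 CPM and IC-like cells at 62.4 CPM. Tfap2b was thus on a plateau from the loop to the principal cells, with the intercalated cells set apart. The genes most like it were Lnx1, a ubiquitin ligase gene, Kcnj1, the ROMK potassium channel of loop and distal cells, and Sim1, a transcription factor (r = 0.989, 0.981 and 0.975).

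On the plateau Tfap2b did not differ detectably between the groups. The log2 fold changes were -0.09 (SE 0.10) in LOH-like, 0.03 (SE 0.14) in macula densa-like, -0.03 (SE 0.10) in DCT-like, -0.16 (SE 0.14) in CNT-like and 0.15 (SE 0.13) in PC-like cells, and the lowest adjusted p among them was 0.674. Thin limb and parietal-like cells were the exception in size. There Tfap2b was at 11.3, 56.6 and 53.6 CPM in WT against 103, 140 and 108 in KO mice. All KO libraries lay above all WT libraries, on 183 UMIs in all (log2 fold change 1.42, SE 0.39, adjusted p = 0.432). With no filter on low counts the adjusted p was 0.00755. Markers of LOH-like cells also varied within this class, with 8 markers summing to 1986 to 5462 CPM in WT and 3459 to 9788 CPM in KO and none of the 8 at 0. Their part in the Tfap2b values was not tested.

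Gata3 joined tubular cells to cells outside the tubule. Stromal and mesangial-like cells were highest, at 622, 774 and 666 CPM in WT against 587, 637 and 570 in KO mice, followed by T and NK-like cells at 340 ± 104 CPM and PC-like cells at 313 ± 21.3 CPM (SD, n = 6). Stromal and mesangial-like cells lay above T and NK-like cells in every library, and the ranges of T and NK-like and PC-like cells overlapped. Within the stromal class the gene was uneven. The cluster led by Sfrp2, Ptn, Adamts5 and Itga8 held 895 CPM, and that led by Myh11, Rgs5, Acta2 and Ren1, genes of smooth muscle and renin cells, held 209 CPM. In the tubule Gata3 decreased from PC-like cells to CNT-like cells at 212 ± 22.3 CPM, IC-like cells at 193 ± 28.7 CPM and DCT-like cells at 108 ± 12.2 CPM (SD, n = 6). On the other side of the DCT it was near 0, with 1.64 CPM in LOH-like and 2.40 CPM in macula densa-like cells. To compare classes at one depth, cells were thinned to 1000 UMIs and those with fewer were left out, 245 of 1115 PC-like, 343 of 1696 LOH-like and 137 of 588 macrophage-like cells of WT libraries. Of the cells kept, 24.02% of PC-like cells held a Gata3 UMI (mean of 3 WT libraries) against 0.292% of LOH-like and 0 of 451 macrophage-like cells, the class taken as lacking these genes. A count of 0 there allows up to 0.665% of cells with a UMI at that depth. Over all cells, without thinning, the shares were 57.5% in PC-like, 1.42% in LOH-like and 1.02% in macrophage-like cells, at median depths of 4111, 5789 and 2934.5 UMIs.

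A second transcript split the Gata3 classes in another way. 9230102O04Rik lies at chr2:9883041-9889540 on the same strand, inside the long form of Gata3, and shares exon bases with it, so that reads from the shared bases could be counted for either gene. It was at 45.8 CPM in PC-like, 40.0 in CNT-like, 22.2 in DCT-like and 18.0 CPM in IC-like cells (means of 6 libraries). In stromal and mesangial-like cells it was at 4.38 CPM and in T and NK-like cells at 1.98 CPM, although Gata3 was highest in those classes. Per 100 Gata3 UMIs there were 14.7 of 9230102O04Rik in PC-like, 18.5 in CNT-like and 21.6 in DCT-like cells, and 0.592 in stromal and mesangial-like and 0.466 in T and NK-like cells. Over single libraries this ratio ran from 10.7 to 17.8 in PC-like cells and from 0 to 1.65 in stromal and mesangial-like cells, so that the ranges did not meet. The antisense Gm13256, which also shares exon bases with Gata3, was at 0.184 CPM or less in every library and class. This pattern was noticed after the values were seen.

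**Figure D2:**
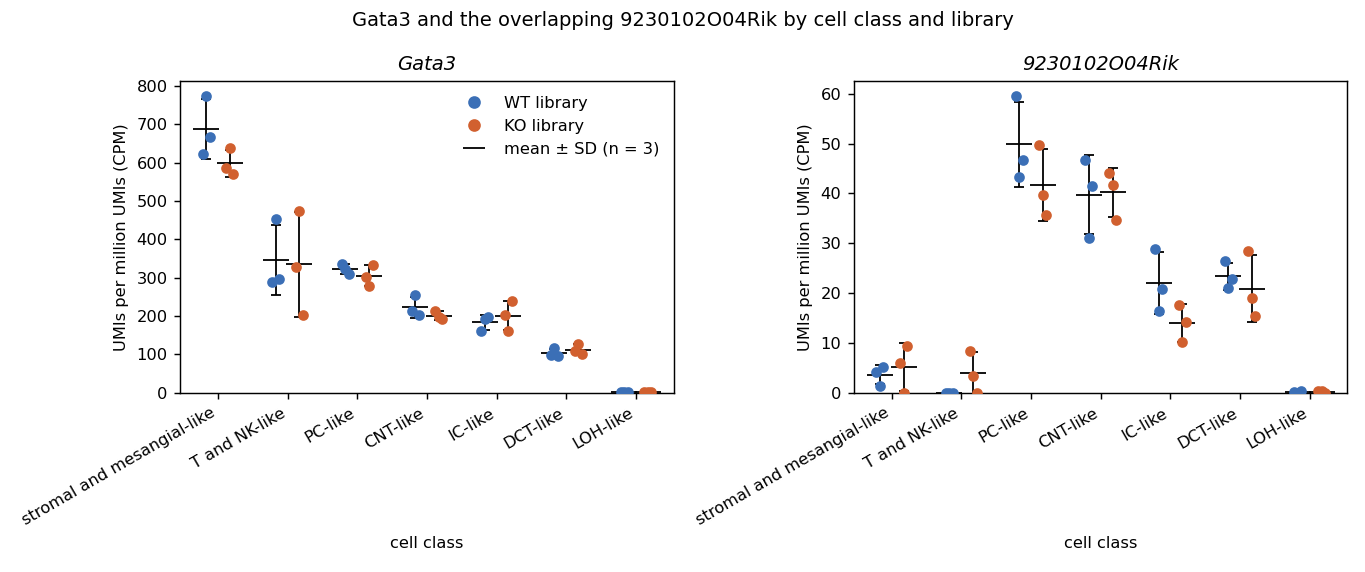
CPM of Gata3 (left) and of the overlapping transcript 9230102O04Rik (right) in 7 cell classes, with 1 point per library, WT in blue and KO in orange, and black marks for the mean ± SD (n = 3). Gata3 is highest in stromal and mesangial-like cells, where 9230102O04Rik stays below 10 CPM, while the latter is highest in PC-like cells at 35.8 to 59.6 CPM.

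Gata3 did not pass the threshold in any of 9 classes. In PC-like cells it was at 334, 323 and 310 CPM in WT against 302, 279 and 333 in KO mice (log2 fold change -0.05, SE 0.13, adjusted p = 0.914). In stromal and mesangial-like cells the log2 fold change was -0.16 (SE 0.18, adjusted p = 0.908), in CNT-like cells -0.13 (SE 0.12), in IC-like cells 0.15 (SE 0.16) and in T and NK-like cells 0.03 (SE 0.30). WT and KO libraries overlapped in all 9 classes. The genes most like Gata3 over classes were less close than those of the other members, namely Map2k2, a kinase gene, Tbx2, a T-box factor, and Nrarp, a regulator of Notch signalling (r = 0.823, 0.792 and 0.781).

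Lhx1, Emx1 and Sall3 shared a peak in DCT-like cells, where 54.1%, 49.7% and 67.0% of their UMIs lay. Lhx1 was there at 195, 173 and 211 CPM in WT against 210, 249 and 183 in KO mice. Emx1 was at 180, 160 and 174 CPM in WT against 221, 216 and 141 in KO mice, and Sall3 at 103, 93.7 and 99.5 CPM in WT against 92.5, 107 and 84.3 in KO mice. For all 3 the range in DCT-like cells lay above that of every other class. Sall3 lies at chr18:80966376-80986771 on the minus strand (GRCm38). They differed in how far they reached. Emx1 kept 56.1% of its DCT-like level in CNT-like cells and 11.4% in PC-like cells. Lhx1 kept 27.4% and 26.0%, so that its CNT-like and PC-like ranges overlapped. These shares are over both groups, which differed for Lhx1 in CNT-like cells, where it kept 39.5% of the DCT-like level in WT and 16.4% in KO. In PC-like cells it kept 33.6% in WT and 19.1% in KO. Sall3 kept 15.6% in CNT-like cells and was at 1.22 CPM in PC-like cells. In LOH-like cells, on the other side of the DCT, Lhx1 was at 1.44 and Emx1 at 1.41 CPM and Sall3 at 6.05 CPM. After thinning, 22.7% of DCT-like cells of WT held an Lhx1 UMI, as a mean of 3 libraries. The share was 7.84% in CNT-like, 5.75% in PC-like and 0.280% in macrophage-like cells. Left out as too shallow were 407 of 1454 DCT-like and 301 of 1576 CNT-like cells.

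Emx1 also differed among the intercalated clusters. Of 3 IC-like clusters, the one led by Atp6v1g3, Hmx2 and Slc26a4 held Emx1 at 39.4 CPM, the one led by Slc4a1, Aqp6, Dmrt2 and Kit, markers of acid-secreting cells, at 22.1 CPM, and the one led by Slc26a4, Insrr and Hmx2, markers of base-secreting cells, at 3.94 CPM. Over libraries the last ran from 1.57 to 5.98 CPM and the other 2 from 6.13 to 50.3 CPM, without overlap. Lhx1 was at 38.6 CPM in the last cluster and 33.5 and 22.1 CPM in the others, with ranges that overlapped. The first cluster also had Insrr among its leading genes, as the last did. Its cells were shallow, at a median of 0.411 of their library's median UMIs against 5.61 and 5.50 in the others. Its marker score was 1.20 for IC-like and 0.797 for CNT-like, the second best class. The part of these in the Emx1 values was not tested. The nearest genes over classes were Lhx1os, Degs2 and Calb1 for Lhx1 (r = 0.928, 0.893 and 0.883), Calb1, Scube3 and Pgam2 for Emx1 (r = 0.964, 0.952 and 0.949), and 4930461G14Rik, Klhl3 and Tmem52b for Sall3 (r = 0.838, 0.830 and 0.826). Calb1 encodes the calcium-binding calbindin of the distal convolution, and Klhl3 a regulator of the WNK kinases that set distal sodium transport. Calb1 was among the CNT-like marker genes used to name classes, although its own highest class was DCT-like, at 3676 CPM.

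To test whether loss of Prdm16 went with a change in these factors, counts were summed per library and class and compared between 3 WT and 3 KO mice with edgeR's quasi-likelihood test. Members passed the filter on low counts in 49 of 104 possible tests of 8 genes in 13 classes, and only those that passed are counted here. One of the 49 was called, Lhx1 in CNT-like cells, at an adjusted p below 0.05. Over all genes and classes 1.51% of 99364 tests were called, so that 1 in 49 was near the background. In CNT-like cells, 2.89% of 10211 genes were called and 1 of the 7 members tested there. No member was called by edgeR in the other classes, where the share of all genes called was 4.45% in LOH-like, 2.47% in PC-like, 1.87% in podocyte-like, 1.02% in DCT-like, 0.921% in IC-like, 0.902% in macula densa-like, 0.353% in macrophage-like, 0.194% in endothelial-like, 0.0516% in stromal and mesangial-like, 0.0327% in PCT-like, 0.0257% in T and NK-like and 0% in thin limb and parietal-like cells. Of the 49 log2 fold changes 24 were above and 25 below 0, with a median of -0.03, and 10 had an unadjusted p under 0.05. The median over all genes was between -0.05 and 0.01 in every class.

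**Figure D3:**
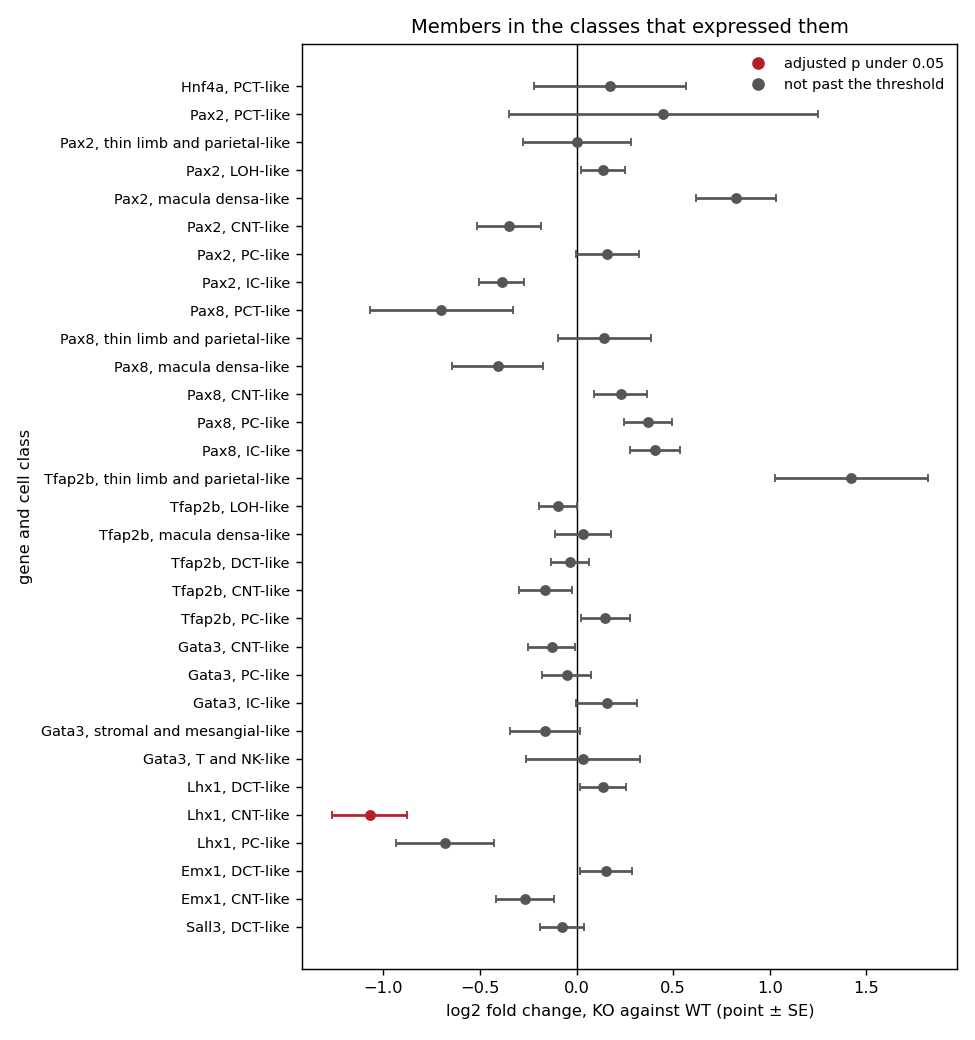
Log2 fold change KO against WT (point ± SE) for the 31 tests of a member in a class where it reached 20% or more of its highest class and passed the filter. Lhx1 in CNT-like cells, at -1.07, is the point past the threshold (red), and Tfap2b in thin limb and parietal-like cells, at 1.42, is the farthest to the right.

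Lhx1 fell in CNT-like cells of KO mice. It was at 97.7, 64.2 and 66.9 CPM in WT (mean 76.3 ± 18.6, SD, n = 3) and at 47.3, 27.3 and 30.7 CPM in KO (mean 35.1 ± 10.7). Every KO library was below every WT library. The log2 fold change was -1.07 (SE 0.19, adjusted p = 0.00604; exact permutation p = 0.1, two-sided), on 1258 UMIs. Both CNT-like clusters took part. In the cluster led by Trpv5 and Slc8a1, calcium transport genes of this segment, Lhx1 was at 98.2, 65.2 and 66.9 CPM in WT against 47.6, 27.0 and 30.7 in KO mice. In the smaller one led by S100g and Klk1 it was at 82.1, 47.5 and 66.4 CPM in WT against 33.8, 42.5 and 32.0 in KO mice, on 2 to 12 UMIs per library. The marker score of the larger cluster was 2.86 for CNT-like and 2.39 for PC-like, the second best class. Its leading genes included the PC-like markers Scnn1g and Hsd11b2. Their part in the Lhx1 values was not tested. After thinning to 1000 UMIs, 7.84% of CNT-like cells held an Lhx1 UMI in WT and 2.80% in KO (means of 3 libraries). Over pooled cells without thinning the shares were 28.4% and 18.1%. Thinning left out 204 of 1193 KO cells. In macrophage-like cells the thinned shares, also means of 3 libraries, were 0.280% in WT and 0.267% in KO, with 451 and 323 cells kept. Other classes with little Lhx1 went either way. The shares in WT and KO were 0.508% and 0.164% in endothelial-like, 0.910% and 0 in T and NK-like, and 0.0724% and 0.316% in podocyte-like cells.

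In DCT-like cells, where Lhx1 was highest, it did not go the same way. The levels of 193 ± 19.1 CPM in WT and 214 ± 33.1 CPM in KO (SD, n = 3) overlapped (log2 fold change 0.13, SE 0.12, adjusted p = 0.811). Emx1 (0.15, SE 0.14) and Sall3 (-0.08, SE 0.11) were not called there either. The change in CNT-like cells differed from that in DCT-like cells by -1.20 on the log2 scale (SE 0.19, adjusted p = 0.00179, edgeR interaction term with the mouse as a block), among 10737 genes of which 0.894% were called. Without the mouse as a block the difference was -1.21, with an adjusted p of 0.0838. It was also not called at a mitochondrial limit of 30% (-0.65, adjusted p = 0.683), with no such limit (-0.22, adjusted p = 0.442) and with equal numbers of cells per library (-0.90, adjusted p = 0.0903). None of the other 20 member tests between neighbouring segments was called, by edgeR, beside 0.876% of genes between LOH-like and DCT-like and 0.952% between CNT-like and PC-like cells, and 4 of the 21 had an unadjusted p under 0.05. Emx1 and Sall3 in CNT-like cells were not called (log2 fold changes -0.27, SE 0.15, and -0.34, SE 0.23). In PC-like cells Lhx1 was at 88.5, 47.1 and 58.8 CPM in WT against 37.3, 55.5 and 29.8 in KO mice, with overlap (-0.68, SE 0.25, adjusted p = 0.237). That test was called in 4 alternatives. The values were -0.71 with no filter on low counts (adjusted p = 0.00724) and -0.91 with no mitochondrial limit (adjusted p = 0.0140). They were -1.06 with no doublet removal (adjusted p = 0.0370) and -1.20 with classes from marker scores (adjusted p = 0.00990). With marker scores the CNT-like value was -0.76. The change in PC-like minus that in CNT-like cells was 0.39 (SE 0.25, adjusted p = 0.658). This difference was -0.42 with marker scores, -0.11 with no doublet removal, -0.67 with no mitochondrial limit and -0.49 at a limit of 30%. Markers of other classes moved in PC-like cells too, without overlap. The 5 CNT-like markers summed to 2574 to 3982 CPM there in WT and 1387 to 1542 CPM in KO, and the 10 IC-like markers to 1220 to 1361 CPM and 716 to 1056 CPM, with none at 0. The 9 thin limb and parietal-like markers, 4 of them at 0, summed to 1.61 to 3.37 CPM in WT and 8.55 to 13.1 CPM in KO. Their part in the Lhx1 and Pax8 values of PC-like cells was not tested. In IC-like cells it was at 46.1, 40.8 and 24.9 CPM in WT against 26.9, 19.7 and 14.7 in KO mice, with overlap (-0.83, SE 0.22, adjusted p = 0.137).

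Lhx1os, the RNA that starts inside the printed stretch, overlapped between the groups in CNT-like cells, where Lhx1 did not. It was at 9.17, 6.49 and 9.26 CPM in WT against 6.67, 8.06 and 5.85 in KO mice. In DCT-like cells it was at 98.6, 95.4 and 87.1 CPM in WT against 96.2, 123 and 110 in KO mice. The pair was thus in different proportions along the tubule, with 49.2 Lhx1os UMIs per 100 Lhx1 UMIs in DCT-like, 12.7 in CNT-like and 14.8 in PC-like cells. Over single libraries the ratio was 41.3 to 59.9 in DCT-like and 9.39 to 29.5 in CNT-like cells, which did not overlap. The CNT-like ratio covers both groups. It was 9.39, 10.1 and 13.8 in WT against 14.1, 29.5 and 19.0 in KO mice, on 160 Lhx1os UMIs.

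**Figure D4:**
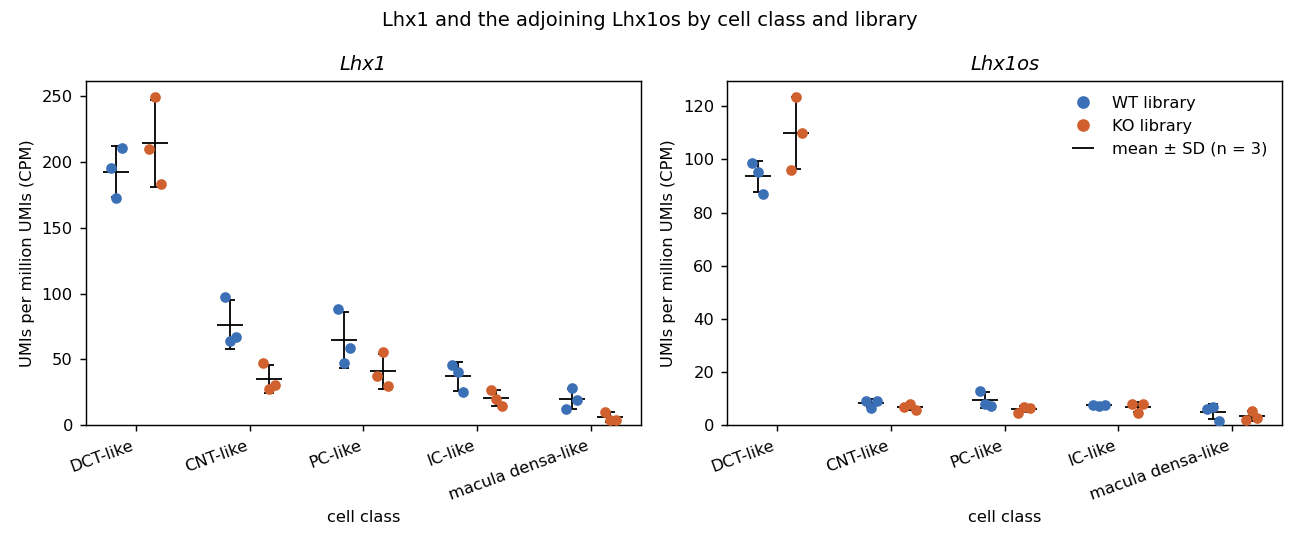
CPM of Lhx1 (left) and Lhx1os (right) in 5 cell classes, with 1 point per library, WT in blue and KO in orange, and black marks for the mean ± SD (n = 3). In CNT-like cells the KO points of Lhx1 lie at 27.3 to 47.3, below the WT points at 64.2 to 97.7, while the groups overlap in DCT-like cells and Lhx1os stays below 10 CPM in CNT-like cells of both groups.

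Several measures moved with the Lhx1 result. The 5 markers of CNT-like cells summed to 47042 to 56160 CPM in CNT-like cells of WT and to 36263 to 46409 CPM in KO, none of them at 0. They were also lower in DCT-like cells of KO, at 13566 to 15282 CPM against 18843 to 22402 CPM, where Lhx1 was not. Within CNT-like cells the 8 LOH-like markers were lower in KO as well, at 396 to 634 CPM against 828 to 1002 CPM, and the 14 PCT-like markers, 1 of them at 0, were higher, at 30.8 to 39.0 CPM against 12.4 to 21.2 CPM. Their part in the result was not tested. The 5 markers of DCT-like cells overlapped in CNT-like cells, at 290 to 491 CPM in WT and 301 to 414 CPM in KO, compared with 4105 to 5231 CPM in DCT-like cells themselves. The call did not hold under every handling of the data. Without KO replicate 3 it was missed, at -1.03 on the log2 scale (adjusted p = 0.0557). With equal numbers of cells per library it was -0.81 (adjusted p = 0.0874). The mitochondrial limit moved the value furthest. At 30% only 691 of 2769 CNT-like cells were left and the value was -0.56 (adjusted p = 0.611). With no limit 3796 cells were CNT-like and 10711 DCT-like, and the value was -0.20 (adjusted p = 0.606). The DCT genes then hardly separated the classes. In CNT-like and DCT-like cells Sall3 was at 48.2 and 47.3 CPM, Emx1 at 99.2 and 92.9 CPM and Lhx1 at 84.7 and 97.3 CPM. With the libraries that carry Xist as a block the Lhx1 value remained at -1.07 (adjusted p = 0.00379), and without WT replicate 2 or KO replicate 1 it was -1.21 and -1.32.

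Of the 49 member tests, 8 had groups that did not overlap, 5 with KO above and 3 with KO below WT. Besides Lhx1 in CNT-like cells they were Pax2 in macula densa-like and IC-like cells, Pax8 in PC-like, IC-like and DCT-like cells, Tfap2b in thin limb and parietal-like cells and Emx1 in IC-like cells. Groups that do not overlap were common in these data, at 11.2% of genes in thin limb and parietal-like, 13.8% in macula densa-like, 14.8% in DCT-like, 15.8% in CNT-like, 16.1% in IC-like and 18.7% in PC-like cells. No member test was of this kind in LOH-like, podocyte-like, endothelial-like, PCT-like, stromal and mesangial-like or T and NK-like cells, with shares over all genes of 21.8%, 23.5%, 13.4%, 12.7%, 12.2% and 9.65%, and in macrophage-like cells (14.5%) no member was tested. Emx1 in IC-like cells was at 27.0, 32.0 and 26.0 CPM in WT against 20.3, 7.76 and 15.5 in KO mice (log2 fold change -0.91, SE 0.24, adjusted p = 0.137). Emx1 and Lhx1 in IC-like cells were called in 2 alternatives each, by DESeq2 at adjusted p of 0.0313 and 0.0386 and by edgeR with no filter on low counts at 1.64e-05 and 1.91e-05. In the same cells the 5 CNT-like markers summed to 13147 to 16535 CPM in WT and 4806 to 11270 CPM in KO. The 8 PC-like markers were at 3448 to 4424 against 2192 to 2906 CPM and the 8 LOH-like markers at 567 to 789 against 362 to 480 CPM, and the part of these markers was not tested.

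**Figure D5:**
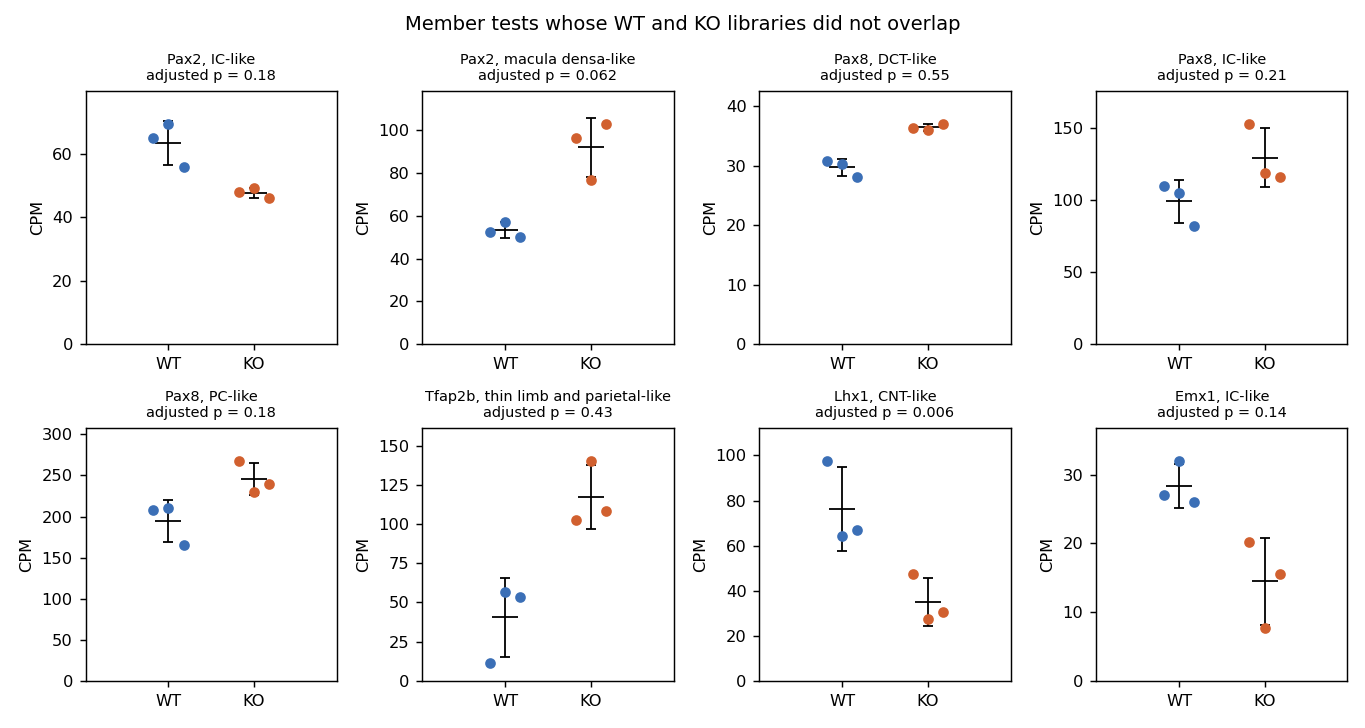
CPM of the 8 member tests whose WT (blue) and KO (orange) libraries did not overlap, with 1 point per library, black marks for the mean ± SD (n = 3) and the adjusted p above each panel. Lhx1 in CNT-like cells, at an adjusted p of 0.006, is the panel past the threshold, and Pax2 in macula densa-like cells follows at 0.062.

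Summed over all retained cells, the DCT genes were lower in KO. Lhx1 was at 57.3, 45.2 and 46.9 CPM in WT against 33.6, 27.1 and 20.6 in KO mice. Emx1 was at 46.5, 46.1 and 42.9 CPM in WT against 42.3, 28.0 and 20.3 in KO mice, and Sall3 at 19.1, 18.5 and 18.6 CPM in WT against 13.99, 11.5 and 10.1 in KO mice. Within DCT-like cells none of the 3 was called. The libraries held 469, 548 and 437 DCT-like cells in WT and 386, 229 and 199 in KO. For Pax2, Pax8, Tfap2b and Gata3 the summed levels overlapped. Emx1 was separated only narrowly, by 42.9 CPM in the lowest WT and 42.3 CPM in the highest KO library. The share of all genes without overlap in such sums was not computed, so that these separations have no background beside them.

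For comparison, 33 other segment factors were counted, a list chosen with earlier results of these data known. Of these 31 passed the filter in at least 1 class, giving 180 tests, of which 12 were called (6.67%), 8 higher and 4 lower in KO, beside 1.51% over all genes. The median log2 fold change of the list was -0.07. Of 6 loop of Henle factors 2 were called. Foxq1, a forkhead factor, rose in LOH-like cells from 118, 108 and 110 to 188, 171 and 217 CPM (log2 fold change 0.78, SE 0.11, adjusted p = 0.00162), and it also rose in CNT-like (0.59, SE 0.14, adjusted p = 0.0393) and DCT-like cells (1.81, SE 0.37, adjusted p = 0.0314). Irx3, an Iroquois factor, rose in LOH-like cells (0.39, SE 0.10, adjusted p = 0.0475). Of 3 distal tubule factors, Tfap2a, the AP-2 relative of Tfap2b, rose in LOH-like cells from 5.36, 7.64 and 5.04 to 15.5, 12.3 and 11.0 CPM (1.08, SE 0.20, adjusted p = 0.00982), and Sall1, the relative of Sall3, rose in macula densa-like cells from 6.64 to 28.2 CPM (1.99, SE 0.43, adjusted p = 0.0228). Beside the LOH-like calls, 8 macrophage-like markers summed to 123 to 197 CPM in WT and 271 to 414 CPM in KO, and 10 IC-like markers lay at 38.8 to 52.9 against 62.2 to 148 CPM. The 5 DCT-like markers (494 to 640 against 394 to 409 CPM), the 6 macula densa-like markers (68.1 to 83.6 against 39.7 to 53.7 CPM, 1 at 0) and the 8 PC-like markers (40.5 to 57.6 against 23.0 to 31.5 CPM) lay lower. The part of these markers was not tested.

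Other calls fell both outside and inside the segment a factor was listed under. Of 4 proximal tubule factors 2 could be tested, and both were called lower in distal cells. Maf, a basic leucine zipper factor, fell in PC-like cells from 88.5, 78.3 and 78.6 to 35.7, 44.2 and 34.0 CPM (log2 fold change -1.10, SE 0.16, adjusted p = 0.00272), and Nr1h4, the bile acid receptor FXR, fell in DCT-like cells from 5.18 to 1.08 CPM on 77 UMIs (-2.32, SE 0.48, adjusted p = 0.0329). Of 9 collecting duct factors 1 was called, Elf5, an ETS factor of principal cells, which fell in PC-like cells from 35.0, 17.0 and 11.98 to 6.99, 4.53 and 5.36 CPM (-1.84, SE 0.43, adjusted p = 0.0465). Among the podocyte factors, Foxc1 rose in PC-like cells on 59 UMIs (2.68, SE 0.54, adjusted p = 0.0217), and Foxc2 fell in podocyte-like cells themselves from 499, 454 and 466 to 337, 384 and 324 CPM (-0.46, SE 0.10, adjusted p = 0.0494). None of the 3 intercalated cell factors and neither of the 2 factors of the whole tubule passed the threshold in edgeR, with 3 of 5 and 1 of 14 tests at an unadjusted p under 0.05. The 8 podocyte markers summed to 24.1 to 64.5 CPM in PC-like cells of WT and 28.0 to 98.5 CPM in KO, and their part in the Foxc1 values was not tested. The CNT-like and IC-like markers that were lower in PC-like cells of KO stand beside the Maf and Elf5 values too, with their part not tested. In podocyte-like cells the 8 podocyte markers were at 21844 to 26516 CPM in WT and 18354 to 20271 CPM in KO, without overlap, and their part in the Foxc2 values was not tested. The calls of Foxq1 in LOH-like cells and of Maf held in all 16 alternatives run and that of Tfap2a in all 15, whereas that of Irx3 held in 3 of 16, that of Nr1h4 in 4 of 13 and that of Foxc2 in 6 of 16. The call of Elf5 held in 8 of 16 alternatives, that of Foxc1 in 10 of 14, that of Sall1 in 7 of 15, and those of Foxq1 in 10 of 16 in CNT-like and 7 of 15 in DCT-like cells.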

How the data were processed

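Renal cortex from 3 WT and 3 Prdm16 KO mice was dissociated and each mouse gave 1 BD Rhapsody library. The authors deposited UMI counts per gene and cell barcode, which they had obtained by running the BD Rhapsody WTA pipeline on mm10. The submitters' processing notes also name Scanpy 1.8. The strand setting of the counting was not given in the sources used here. No column of other samples was present.

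From the 168106 to 208226 barcodes and 96382945 to 121198131 UMIs per library, cells were kept with 500 to 60000 UMIs, 200 to 8000 genes and at most 50% mitochondrial UMIs. Scrublet's automatic cut marked less than 0.5% of cells in each library, so the 6% of cells with the highest doublet scores were removed instead. Cells were clustered in scanpy 1.11.5 (2000 variable genes, 30 principal components, 15 neighbours, Leiden resolution 1) and named from 134 marker entries. Classes with 20 or more cells in every library (10 for PCT-like) were compared.

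UMI counts were summed per library and class and tested in edgeR 4.0.16 under R 4.3.3 (TMM, filterByExpr with a minimum count of 10, quasi-likelihood test, Benjamini-Hochberg adjustment within a class, threshold 0.05). All adjusted p-values are from edgeR unless DESeq2 1.42.0 is named. Single values were compared by exact two-sided permutation, which cannot go below p = 0.1 with 3 against 3. The scripts were tested on simulated data. Likeness was Pearson's r of log2(CPM + 1) over class means among genes reaching 20 CPM in a class. Members were described in the classes where they reached 20% or more of their highest class or where their groups did not overlap, and every called factor of the list was named, except 1 that is counted but not reported here. Members and lists were chosen with earlier results of these data known. The precision is set by the number of UMIs behind a value, and the limits given for counts of 0 (3 counts) cover counting error only. Alternatives were RLE size factors, DESeq2, no filter, blocks for replicate number and for Xist, leaving out each library, other mitochondrial limits, no doublet removal, classes from marker scores and equal cell numbers.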

Additional observations from a re-analysis of the deposited data

Results flagged for a closer look

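The effect of genotype on Lhx1 differed between neighbouring segments. The log2 fold change KO against WT in CNT-like cells minus that in DCT-like cells was -1.20 (SE 0.19, adjusted p = 0.00179, edgeR interaction term with the mouse as a block). Lhx1 was lower in all 3 KO libraries than in all 3 WT libraries in CNT-like cells and overlapped in DCT-like cells. The difference was called in 9 of the 13 alternatives run, of which 5 with other cells or classes were chosen after seeing the data, and its values lay between -1.45 and -0.22. It missed the threshold without the mouse as a block (adjusted p = 0.0838), at a mitochondrial limit of 30% (-0.65, adjusted p = 0.683), with no limit (-0.22, adjusted p = 0.442) and with equal numbers of cells per library (-0.90, adjusted p = 0.0903).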

How the results depend on the processing

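One member test was called. The number called was 3 with DESeq2, 7 of 101 tests with no filter on low counts, 0 of 36 with a mitochondrial limit of 30%, 3 with no such limit, 2 with no doublet removal (an alternative chosen after seeing the data), 3 with classes from marker scores, 0 with equal numbers of cells per library, and 0 to 1 when a library was left out. For the list of other factors, 12 calls became 26 of 411 tests with no filter, 6 at a limit of 30%, 7 with equal cells and 4 to 8 when a library was left out. The number of members with the same highest class was 5 of 8 with no mitochondrial limit. Of the differences between segments, 0 were called without the mouse as a block (by edgeR, with 1 of 21 at an unadjusted p under 0.05). In alternatives chosen after seeing the data, 0 were called at a limit of 30% (1 of 20) and with equal cells (4 of 21), and 2 with no limit, both Lhx1, at 0.96 in DCT-like against LOH-like and -0.67 in PC-like against CNT-like cells. Removing the top 6% of doublet scores everywhere is the same as the fit reported and gave no separate value. The cause of these shifts was not tested.

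Over the 31 member results described, 482 alternative values were computed, of which 437 kept their direction and side of the threshold, 4 lost the call, 7 gained one and 34 changed sign. No value that changed sign had been called. At a limit of 30% the log2 fold changes that changed sign were 0.047 for Gata3 in CNT-like, -0.20 for Pax2 in LOH-like, -0.81 for Pax2 and -0.14 for Pax8 in thin limb and parietal-like and 0.24 for Tfap2b in LOH-like cells. With no limit they were -0.20 for Hnf4a in PCT-like, -0.21 for Pax2 in PC-like, -0.097 for Pax2 in PCT-like, 0.26 for Pax8 in macula densa-like, -0.0135 for Tfap2b in PC-like and -0.14 for Tfap2b in macula densa-like cells. With classes from marker scores they were 0.026 for Gata3 in CNT-like, -0.0105 for Gata3 in T and NK-like, -0.044 for Pax2 in PC-like, -0.066 for Pax2 in thin limb and parietal-like and -0.065 for Tfap2b in macula densa-like cells. With equal cells they were -0.18 for Gata3 in T and NK-like and -0.31 for Pax2 in thin limb and parietal-like cells. With no filter they were -0.0067 for Gata3 in T and NK-like and -0.073 for Hnf4a in PCT-like cells, and with no doublet removal -0.0046 for Hnf4a. With a library left out, Gata3 ran from -0.025 to 0.29 in IC-like, -0.16 to 0.0003 in PC-like and -0.23 to 0.31 in T and NK-like cells, Hnf4a from -0.44 to 0.38 in PCT-like, Pax2 from -0.077 to 1.04 in PCT-like and -0.22 to 0.16 in thin limb and parietal-like and Tfap2b from -0.074 to 0.097 in macula densa-like cells.

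Replicate numbers in the labels did not pair the mice. Of 39 correlations of same-numbered deviations, which lay between -0.227 and 0.213, no class had every pair over 0.1. With the replicate block 1 member test and 9 list tests were called, and the values that changed sign were -0.0087 for Gata3 in T and NK-like and -0.037 for Pax2 in thin limb and parietal-like cells. With the libraries that carry Xist as a block the latter was -0.023. The PCT-like comparison of Hnf4a rested on 8 to 83 UMIs per KO library.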
